A study of Arabidopsis thaliana with 6 samples.

Results

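The genes described here make, inactivate and transduce brassinosteroids, the steroid hormones of plants. They are 10 of the 24439 genes in the deposited tables and were taken by locus identifier. DET2, DWF1, DWF4, CPD, ROT3 and BR6OX2 act in synthesis, BAS1 in inactivation, BRI1 in perception, and BZR1 and BES1 in the transcriptional response. RNA-seq had been run on Arabidopsis thaliana seedlings of 3 genotypes, with 2 biological replicates and hence 2 libraries each. The pifq seedlings carry the genotype label pifq1 pifq3 piq4 pifq5 homozygote, read here as a misspelling of mutations in PIF1, PIF3, PIF4 and PIF5, genes for transcription factors that hold back light-type development. The f1f3 seedlings are labelled fypp1 fypp3 homozygote and lack normal FYPP1 and FYPP3, catalytic subunits of the protein phosphatase PP6. Col is the wild type. Seeds of every genotype were kept for 3 d at 4 °C in darkness, given 12 h of white light, and grown for 4 d in the dark at 22 °C. The series title names PP6 action on PIF proteins as the subject. The labels give neither the alleles nor the number of seedlings pooled.

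Brassinosteroids are made from the sterol campesterol by a chain of reductions and cytochrome P450 oxidations. The hormone binds the receptor kinase BRI1 at the cell surface, which leads to inhibition of the kinase BIN2 and to accumulation of active BZR1 and BES1 in the nucleus. These factors in turn lower the transcription of several synthesis genes and raise that of growth genes. In darkness the hormone sustains hypocotyl elongation, and seedlings that cannot make it, such as det2 and cpd mutants, look partly light-grown in the dark. BZR1 and PIF4 are known to bind each other and to share target genes.

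Values are deposited signal values, that is reads divided by a size factor of each library, and errors are SD over n = 2. The recovered depth was 17.9 to 27.7 M reads per library. Of the mutated genes, PIF3 stood at 62.3 and 37.5 in pifq against 1776 and 1959.5 in Col, and PIF5 at 87.8 and 139.6 in pifq against 470.3 and 659.9 in Col. PIF1 and PIF4 transcripts were not lower in pifq than in Col. Both pifq libraries lay above both Col libraries, at 1.37-fold for PIF1 and 1.86-fold for PIF4 (limma adjusted p = 0.125 and 0.0808). In f1f3, PIF4 fell to 0.225-fold of Col and PIF5 to 0.457-fold (limma adjusted p = 0.00277 and 0.0458), while PIF1 and PIF3 did not pass (0.438 and 0.317). FYPP1 stood at 386 and 285 in f1f3 against 712 and 759 in Col, and FYPP3 fell there too, by 1.11 on the log2 scale (limma adjusted p = 0.00737). The library pifq replicate 1 stood apart in 11 seed storage and late embryogenesis markers, whose summed value was 20422.5 there, against 35 in pifq replicate 2 and 29.1 to 191.4 in the f1f3 and Col libraries. In these whole seedlings, fewer cells of a type and less RNA per cell cannot be told apart. Summed over 9 root markers the values were 4188.3 and 5340.0 in pifq, 7688.9 and 6432.1 in f1f3, and 8034.7 and 7592.9 in Col. In pifq against Col 0 of the 9 had a limma adjusted p under 0.05, and their log2 changes ran from -1.21 to 0.3. Of these 9 markers, 3 root hair genes rose in f1f3 (EXPA18 5.22-fold, COBL9 2.26-fold and EXPA7 2.09-fold, limma adjusted p = 0.0023, 0.0285 and 0.042), and IRT1, an iron transporter of the root epidermis, fell, with 22.2 and 0.9 in f1f3 against 277.6 and 1660.2 in Col (adjusted p = 0.00738). Over 5 stomatal lineage markers they were 2093.0 and 2108.7 in pifq, 863.9 and 983.0 in f1f3, and 917.6 and 744.0 in Col, and no root or stomatal marker was at 0 in any library. Their part in the results below was not tested. The markers of the dark-grown state (PORA, HLS1 and XTH15) were present in every library, with sums of 10701.2 and 10893.6 in pifq, 64434.4 and 45813.7 in f1f3, and 120435.3 and 102869.6 in Col.

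Differences between genotypes were tested with limma on log2 of the value plus 1, two-sided, with Benjamini-Hochberg adjustment over 20581 genes, those that reached 10 or more in 2 or more libraries. All 10 genes were in this tested set, with between 236 and 23241 recovered reads per gene and library. A gene is said to have risen or fallen where its adjusted p was under 0.05. All 3 comparisons share libraries: Col serves both mutants, and each mutant enters the comparison between them.

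In f1f3 against Col, 3 of the 10 genes passed and all fell: BAS1, ROT3 and CPD. Of all tested genes 24.4% passed in that comparison, with 12.8% lower and 11.6% higher in f1f3. In pifq against Col, 2 of the 10 passed and both fell, namely ROT3 and BR6OX2, where 6.48% of all tested genes passed, 2.87% lower and 3.61% higher. In pifq against f1f3, BES1 was higher and BR6OX2 was lower, 2 of 10, where 16% of all tested genes passed, 9.36% higher and 6.63% lower. The median log2 fold change of the 10 genes was -0.27 in f1f3 against Col, -0.37 in pifq against Col and 0.02 in pifq against f1f3, beside -0.004, -0.011 and -0.02 over all tested genes. Scaling by library totals in place of the deposited factors moved the median gene by 0.12 in f1f3 against Col, with 2915 genes higher and 2090 lower in place of 2384 and 2634. It moved the median by -0.13 in pifq against f1f3, with 1523 higher and 1896 lower in place of 1927 and 1364, and left the same number of members called in each comparison.

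**Figure D1:**
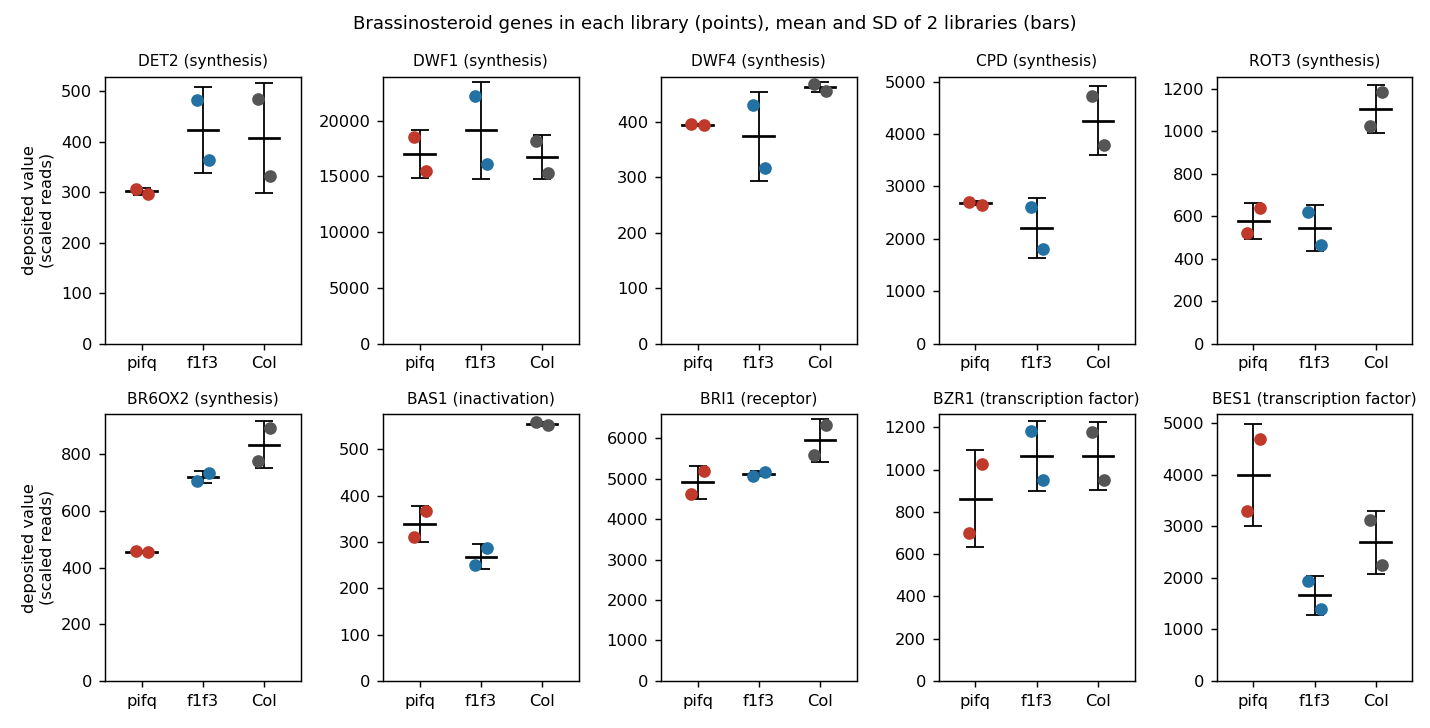
Deposited value (vertical axis, scaled reads, from 0) of each of the 10 genes in pifq, f1f3 and Col (horizontal axis). Points are libraries, horizontal bars are means and whiskers are SD of 2 libraries. DWF4, CPD, ROT3, BR6OX2, BAS1 and BRI1 sat lower in all 4 mutant libraries than in either Col library. BR6OX2 was lowest in pifq at 454 and 457, and BES1 was highest in pifq and lowest in f1f3.

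Of the 10 genes, 7 had values in both f1f3 libraries below both Col libraries (33% of all tested genes did) and 0 had both above (32.8%), while 65.9% of all tested genes did not overlap in either direction. Likewise 7 had values in both pifq libraries below both Col libraries (27.4% of all tested genes), and BES1 was above Col in both, as were 27.1% of tested genes, 54.5% in either direction. Between the mutants, CPD, BAS1 and BES1 were higher in both pifq libraries than in both f1f3 libraries (29.3% of all tested genes were), and BR6OX2 and DET2 were lower (30% were), beside 59.2% in either direction. DWF4, CPD, ROT3, BR6OX2, BAS1 and BRI1 were lower without overlap in both mutants, DET2 in pifq and BES1 in f1f3. Of these, DWF4, BRI1, DET2 and BES1 passed the test against Col in neither mutant. The share of all tested genes lower in both mutants was not counted, and both comparisons use the same Col libraries.

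The stretches before the genes that passed in some comparison are shown here with that of BZR1, the close relative of BES1, because both hormone-activated factors and PIFs bind short motifs near the starts of their targets. Each line gives the 250 bases before the annotated gene start in the RefSeq TAIR10.1 genome, 5′ to 3′ on the strand of the gene. Capitals mark matches, on either strand, to the G-box CACGTG, to the PBE-box CACATG, or to the brassinosteroid response element, searched in its forms CGTGTG and, separately, CGTGCG.
CPD, chr5:1706949-1707198, minus strand: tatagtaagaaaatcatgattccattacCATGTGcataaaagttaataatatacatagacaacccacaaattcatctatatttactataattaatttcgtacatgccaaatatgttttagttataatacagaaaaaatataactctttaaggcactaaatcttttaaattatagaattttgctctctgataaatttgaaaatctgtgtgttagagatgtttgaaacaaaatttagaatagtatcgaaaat
ROT3, chr4:17192508-17192757, minus strand: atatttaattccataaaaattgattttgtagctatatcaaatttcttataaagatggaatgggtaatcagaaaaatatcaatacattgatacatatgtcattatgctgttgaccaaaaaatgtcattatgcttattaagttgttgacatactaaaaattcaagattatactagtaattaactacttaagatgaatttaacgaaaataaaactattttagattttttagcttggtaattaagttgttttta
BR6OX2, chr3:11810476-11810725, plus strand: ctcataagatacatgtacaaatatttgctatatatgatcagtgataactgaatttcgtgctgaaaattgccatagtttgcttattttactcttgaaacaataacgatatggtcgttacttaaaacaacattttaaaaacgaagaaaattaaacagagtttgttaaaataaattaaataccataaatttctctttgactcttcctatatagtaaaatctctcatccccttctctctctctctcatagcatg
BAS1, chr2:11380213-11380462, plus strand: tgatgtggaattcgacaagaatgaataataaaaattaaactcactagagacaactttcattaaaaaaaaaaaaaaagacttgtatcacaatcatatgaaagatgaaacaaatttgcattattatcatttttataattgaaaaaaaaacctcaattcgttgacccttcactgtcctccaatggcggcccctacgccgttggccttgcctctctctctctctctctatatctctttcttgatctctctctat
BZR1, chr1:28185254-28185503, plus strand: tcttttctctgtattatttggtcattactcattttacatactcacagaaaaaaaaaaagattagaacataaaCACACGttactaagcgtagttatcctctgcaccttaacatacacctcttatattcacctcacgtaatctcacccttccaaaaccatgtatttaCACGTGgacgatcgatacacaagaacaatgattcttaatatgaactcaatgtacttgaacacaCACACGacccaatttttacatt
BES1, chr1:6688213-6688462, plus strand: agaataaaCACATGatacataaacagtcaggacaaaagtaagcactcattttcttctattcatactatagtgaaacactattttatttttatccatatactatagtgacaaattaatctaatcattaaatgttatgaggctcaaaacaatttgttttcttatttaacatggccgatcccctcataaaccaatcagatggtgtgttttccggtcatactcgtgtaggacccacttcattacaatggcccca
BZR1 held 1 G-box and 2 response elements of the form CGTGTG, the factor's own binding motif. CPD and BES1 held 1 PBE-box each, and the windows of ROT3, BR6OX2 and BAS1 had no capital stretch. These are letter matches in a short window and say nothing about binding.

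Among the 10 windows, 4 held a PBE-box (DET2, DWF1, CPD and BES1), against 11.1% of the windows before 27443 nuclear protein-coding genes. A G-box was in 1 of 10 (6.49% of all windows) and either form of the response element in 1 of 10 (6.71% of all windows, 5.37% for CGTGTG and 1.57% for CGTGCG). The wider E-box CANNTG, which includes the G-box and the PBE-box, was in 9 of 10 windows and in 55.3% of all windows, and BR6OX2 was the exception. DWF1 carried 2 overlapping PBE-boxes. The window of DET2 reaches into a neighbouring annotated gene. Of the genes whose windows held a PBE-box, CPD passed in f1f3 against Col, BES1 passed in pifq against f1f3, and DET2 and DWF1 passed in none of the 3 comparisons. Whether these genes differed in their changes was not tested.

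**Figure D2:**
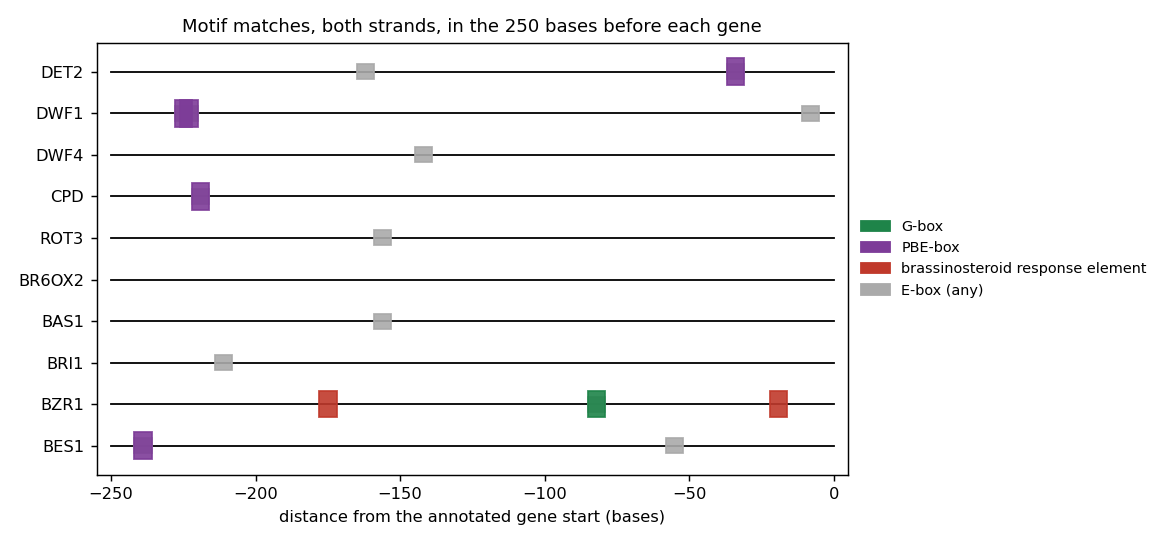
Motif matches on both strands in the 250 bases before each of the 10 genes; the horizontal axis is the distance in bases from the annotated gene start. Boxes mark the G-box, PBE-box, brassinosteroid response element and any other E-box. BZR1 holds both response elements and the G-box, and BR6OX2 holds no match.

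DWF1 (AT3G19820, chr3:6879524-6882315, minus strand) and DET2 (AT2G38050, chr2:15921136-15922321, minus strand) supply the early part of the chain. DWF1 completes campesterol, and DET2 is a steroid reductase whose mutants are de-etiolated in darkness. DWF1 had values of 18559 and 15513 in pifq, 22204 and 16079 in f1f3, and 18149.6 and 15312 in Col, so all 3 groups overlapped. Its log2 fold change was 0.03 in pifq against Col (95% interval -0.61 to 0.66, limma adjusted p = 0.971) and 0.18 in f1f3 against Col (-0.45 to 0.81, adjusted p = 0.665). DET2 had 307 and 296 in pifq, 483 and 362.5 in f1f3, and 484.5 and 331 in Col. The pifq libraries lay just below the lower Col library, and the change was -0.41 in pifq against Col (-0.97 to 0.15, adjusted p = 0.354) and 0.06 in f1f3 against Col (-0.50 to 0.62, adjusted p = 0.875). These intervals are wide, so a moderate change of either gene could not be seen at this replication.

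DWF4 (AT3G50660, chr3:18813949-18817405, minus strand) encodes the P450 that is held to set the rate of synthesis, and CPD (AT5G05690, chr5:1702640-1706948, minus strand) the P450 that acts after it. DWF4 had 395 and 394 in pifq, 431 and 317 in f1f3, and 469 and 456 in Col. Both mutants were lower than Col in every library, by less than the test could separate (-0.23 in pifq, adjusted p = 0.543, and -0.32 in f1f3, adjusted p = 0.274). CPD had 2710.2 and 2648 in pifq, 2604 and 1799 in f1f3, and 4725 and 3785 in Col. It fell in f1f3 by 0.97 on the log2 scale (SE 0.22, adjusted p = 0.0185) to a fold of 0.512. In pifq its fold was 0.634 (log2 -0.66, SE 0.22, adjusted p = 0.121). The difference between pifq and f1f3 was 0.31 (-0.20 to 0.82, adjusted p = 0.389), so CPD is not shown to differ between the mutants. Without Col replicate 1 the adjusted p of CPD in f1f3 was 0.0962, and without f1f3 replicate 2 it was 0.1.

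ROT3 (AT4G36380, chr4:17187528-17192507, minus strand) encodes a P450 of the later oxidation steps and is named for the rounded leaves of its mutant. It fell in each mutant, the 1 gene of the 10 to do so with limma without a replicate block. With the replicate number as a block, CPD and BAS1 did so too (limma adjusted p = 0.0304 and 0.0287 in pifq, 0.00318 and 0.00296 in f1f3). With DESeq2 on the recovered reads BAS1 passed in both mutants too (adjusted p = 0.00013 in f1f3 and 0.0266 in pifq). Whether ROT3 differed from BAS1 or CPD in its changes was not tested. ROT3 had 518 and 638 in pifq, 620.4 and 466 in f1f3, and 1024 and 1182 in Col. Every mutant library lay below both Col libraries, and pifq and f1f3 overlapped each other. The log2 change was -0.94 in pifq against Col (SE 0.21, adjusted p = 0.0382) and -1.03 in f1f3 against Col (SE 0.21, adjusted p = 0.0121), and pifq against f1f3 gave 0.10 (-0.38 to 0.57, adjusted p = 0.79). The call in pifq was lost without any 1 of the 4 pifq and Col libraries. Its value then ran from -1.08 without pifq replicate 2 (adjusted p = 0.0724) to -0.79 without pifq replicate 1 (adjusted p = 0.205), with -1.04 without Col replicate 1 (adjusted p = 0.111) and -0.83 without Col replicate 2 (adjusted p = 0.179). In f1f3 the call was lost without Col replicate 2 (adjusted p = 0.0708) and without f1f3 replicate 2 (adjusted p = 0.0747).

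BR6OX2 (AT3G30180, chr3:11810726-11813883, plus strand) encodes the P450 of the final steps, which yield castasterone and brassinolide, the most active brassinosteroid. It had 457 and 454 in pifq, 705 and 735.5 in f1f3, and 775 and 893 in Col. The pifq libraries lay far below the others, and the f1f3 libraries just below Col. BR6OX2 fell in pifq, with a log2 change of -0.87 against Col (SE 0.17, adjusted p = 0.0244), and was lower in pifq than in f1f3 by a log2 change of -0.66 (SE 0.17, adjusted p = 0.0333). In f1f3 against Col the change was -0.21 (-0.59 to 0.18, adjusted p = 0.393). The test between the mutants is thus a test that BR6OX2 responded differently in them, and it passed with all 6 libraries. It did not pass without any 1 of the 6, with adjusted p from 0.0532 without Col replicate 1 and 0.0539 without Col replicate 2 to 0.0912 and 0.131 without f1f3 replicates 1 and 2, and 0.105 and 0.129 without pifq replicates 1 and 2, while the value stayed between -0.69 and -0.63. The call of pifq against Col was lost without pifq replicate 1 (0.119), pifq replicate 2 (0.0849), Col replicate 1 (0.084) and Col replicate 2 (0.143), with values from -0.97 to -0.77.

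BAS1 (AT2G26710, chr2:11380463-11383821, plus strand) encodes a P450 that inactivates brassinosteroids and was found as a suppressor of a phytochrome B mutant. It had 311 and 367 in pifq, 249.8 and 287 in f1f3, and 558 and 551 in Col. The Col libraries differed by little, and every mutant library was below them. BAS1 fell in f1f3 to a fold of 0.484 (log2 -1.05, SE 0.19, adjusted p = 0.00864), a call that held without each library in turn. In pifq its fold was 0.61 (log2 -0.71, SE 0.19, adjusted p = 0.0661), short of the threshold with limma but past it with DESeq2 on the recovered reads (adjusted p = 0.0266). The mutants differed by 0.33 (-0.10 to 0.77, adjusted p = 0.274). BAS1 removes the hormone that ROT3 and CPD help to make, and the transcripts of BAS1, ROT3 and CPD fell in f1f3. Of the 10 tested synthesis genes, only 2 fell there, ROT3 and CPD (median log2 change -0.12), where 12.8% of all tested genes fell.

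BRI1 (AT4G39400, chr4:18324457-18328831, plus strand), the receptor, had 4621 and 5204 in pifq, 5078 and 5168 in f1f3, and 5579.9 and 6335 in Col. All mutant libraries were below Col, by -0.28 in pifq (-0.70 to 0.15, adjusted p = 0.407) and -0.21 in f1f3 (-0.64 to 0.21, adjusted p = 0.427). The lower end of the f1f3 interval lies above the fitted change of BAS1 in f1f3, -1.05, so a fall of that size in the receptor is outside it. In pifq the lower end, -0.70, lies close to the fitted change of BAS1 in pifq, -0.71.

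BZR1 (AT1G75080, chr1:28185504-28188075, plus strand) and BES1 (AT1G19350, chr1:6688463-6691216, plus strand) encode close relatives with largely shared targets, and how far reads of one were counted for the other was not measured. BZR1 had 701 and 1025 in pifq, 1182.5 and 949 in f1f3, and 1179.7 and 952 in Col. All 3 groups overlapped, and the f1f3 and Col libraries were nearly alike (log2 change 0.00, 95% interval -0.53 to 0.53, adjusted p = 0.998). BES1 had 3289 and 4693 in pifq, 1929.9 and 1398 in f1f3, and 3116 and 2255 in Col. No group overlapped another: pifq was above Col and f1f3 below it. BES1 was 2.39-fold higher in pifq than in f1f3 (log2 1.26, SE 0.26, adjusted p = 0.0156). Against Col neither mutant passed, with 0.57 in pifq (-0.03 to 1.16, adjusted p = 0.235) and -0.69 in f1f3 (-1.29 to -0.09, adjusted p = 0.0871). The difference between the mutants was 1.51 (adjusted p = 0.0237) when the library rich in seed storage RNA, pifq replicate 1, was left out, but did not pass without pifq replicate 2 (1.001, adjusted p = 0.096) or without f1f3 replicate 2 (1.03, adjusted p = 0.0984).

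**Figure D3:**
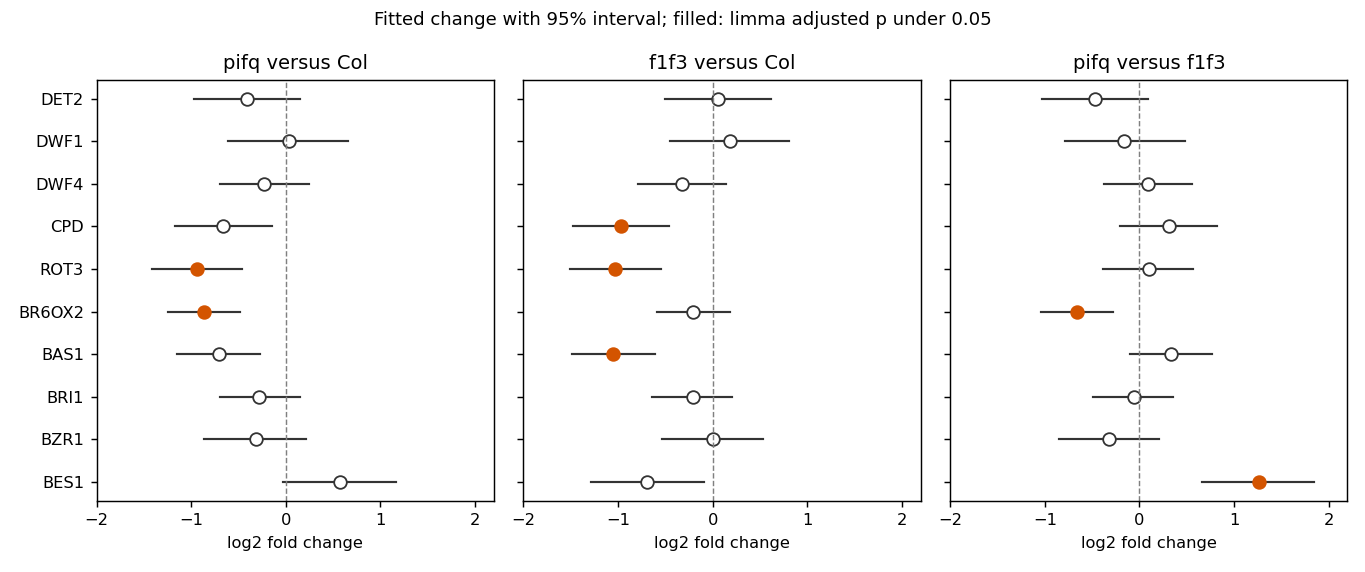
Log2 fold change (horizontal axis, point) with its 95% interval (line) for each gene in pifq against Col, f1f3 against Col and pifq against f1f3; filled points passed limma's adjusted p of 0.05. CPD, ROT3 and BAS1 are filled in f1f3 against Col, ROT3 and BR6OX2 in pifq against Col, and BR6OX2 and BES1 between the mutants.

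The reads of 6 of the 10 genes can include some of an overlapping gene, since the sources used here do not say whether counting used strand. BES1 and BZR1 share 33.6% and 30.2% of their exon bases with antisense neighbours in the RefSeq annotation, and CPD, ROT3 and DET2 between 1.04% and 3.46%. DWF1 shares 0.742% with a neighbour on its own strand. DWF4, BR6OX2, BAS1 and BRI1 overlap no annotated gene.

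Levels of different genes were compared only per kilobase of exon, as deposited value per kb. In Col the order was DWF1 (6206 ± 744), CPD (2206 ± 345), BRI1 (1362 ± 122), BES1 (1102 ± 250), BZR1 (554 ± 83.6), ROT3 (460 ± 46.6), BR6OX2 (436 ± 43.5), DET2 (370 ± 98.7), BAS1 (251 ± 2.05) and DWF4 (163 ± 3.26). Neighbours whose mean ± SD ranges met were BRI1 with BES1, BZR1 with ROT3, ROT3 with BR6OX2, and BR6OX2 with DET2. Among the 6 synthesis genes of this order DWF4 was thus the lowest and DWF1 the highest. In pifq the level of BES1 per kb was 1638 ± 407 and that of CPD 1389 ± 22.8, whereas in f1f3 BES1 had 683 ± 154 and CPD 1141 ± 295. BAS1 stood below DWF4 only in f1f3, at 122 ± 11.9 and 131 ± 28.3 per kb, ranges that met.

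The rest of the pathway was taken from a list of 48 further genes, of which 46 were in the files and 43 were tested. UGT73C6 and CES were not analysed here, and CDG1, BSU1 and TCP1 had values too low for the test. In f1f3 against Col 11 of the 43 fell and 1 rose (median log2 change -0.27), beside 12.8% and 11.6% of all tested genes. With scaling by library totals 8 fell and 2 rose, where 2090 of the 20581 tested genes fell and 2915 rose. In pifq against Col 4 of the 43 passed, all downward (median -0.02), beside 6.48% of all tested genes, 2.87% lower. In pifq against f1f3 7 were higher and 3 lower (median 0.10), beside 9.36% and 6.63% of all tested genes. The members and this list were chosen with earlier results of these data known. In f1f3 the number that passed was 12 with all libraries, 19 with DESeq2 on the recovered reads, and 6 without Col replicate 1, 3 without Col replicate 2, 7 without f1f3 replicate 1 and 3 without f1f3 replicate 2. In pifq against Col it was 4 with all libraries and 1 without Col replicate 1, without Col replicate 2 or without pifq replicate 1, and in pifq against f1f3 it was 10 with all libraries and 6 without f1f3 replicate 1.

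Of 6 tested inactivation genes, BAS1 included, 4 fell in f1f3 (median -0.90), where 12.8% of all tested genes fell, and 1 in pifq (median -0.34), where 2.87% fell. BIA1, an acyltransferase that inactivates brassinosteroids, had 209 and 225 in pifq, 80.5 and 84.3 in f1f3, and 320.0 and 256 in Col. It fell in f1f3 by 1.79 on the log2 scale (SE 0.23, limma adjusted p = 0.00324) and was higher in pifq than in f1f3 by 1.39 (adjusted p = 0.00643). SOB7, a P450 related to BAS1 in sequence and function, had 563 and 521 in pifq, 513.5 and 622 in f1f3, and 921 and 978 in Col. SOB7 was the inactivation gene that passed in pifq, at -0.81 (SE 0.18, adjusted p = 0.0354), and it fell in f1f3 as well, at -0.75 (adjusted p = 0.0199). The call in pifq was lost without any 1 of the pifq or Col libraries, with log2 changes from -0.86 to -0.75. It was also lost with all libraries scaled by library totals (limma adjusted p = 0.059). Of the exon bases of SOB7, 52.4% lie opposite an antisense gene. UGT73C5, a glucosyltransferase of brassinosteroids, had 850.4 and 1357 in pifq, 168 and 235 in f1f3, and 382 and 619.6 in Col, and was higher in pifq than in f1f3 by 2.43 (SE 0.32, adjusted p = 0.00232) and lower in f1f3 than in Col, at -1.29 (adjusted p = 0.0228). It belongs to a cluster of near-identical genes, so its reads are uncertain. The calls of SOB7 and UGT73C5 in f1f3 against Col were lost without Col replicate 2 and without f1f3 replicate 2. Those of BAS1 and BIA1 were kept.

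The synthesis and sterol genes outside the 10 did not pass in any of the 3 comparisons with limma. Over all 10 tested synthesis genes, 2 fell in f1f3 (ROT3 and CPD, median -0.12), where 12.8% of all tested genes fell. In pifq 2 of the 10 fell (ROT3 and BR6OX2, median -0.24), where 2.87% of all tested genes fell. BR6OX1, the sister gene of BR6OX2, had 167 and 139.6 in pifq, 90.0 and 128 in f1f3, and 140.1 and 169 in Col, and its change in pifq was -0.01 (adjusted p = 0.987). CYP90D1, which shares a step with ROT3, had 78.3 and 57.9 in pifq, 67.8 and 91.3 in f1f3, and 77.1 and 84.9 in Col, or 36.5 ± 2.48 per kb in Col, where ROT3 had 460 ± 46.6. Its changes were -0.26 in pifq (adjusted p = 0.678) and -0.04 in f1f3 (adjusted p = 0.942). Whether ROT3 and CYP90D1, or BR6OX2 and BR6OX1, differed in their changes was not tested. The 6 sterol genes upstream, which also serve membranes, had medians of 0.38 in f1f3 and 0.11 in pifq.

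At the receptor and in the relay to the nucleus, 3 of 8 receptor-level genes fell in f1f3 (median -0.70), beside 12.8% of all tested genes. Of 9 relay kinases and phosphatases 1 rose and 1 fell in f1f3, close to the 24.4% of all tested genes that passed. The receptor-level genes that fell were BRL1 (-1.24, adjusted p = 0.0114) and BRL3 (-0.80, adjusted p = 0.0185), relatives of BRI1 that also bind the hormone, and BKI1 (-0.88, adjusted p = 0.0273), an inhibitor of BRI1. BKI1 had 225.2 and 334.8 in pifq, 245.6 and 251.0 in f1f3, and 458.8 and 459.5 in Col, and its change in pifq was -0.74 (adjusted p = 0.0995). The relay gene that fell was BSK1 (-0.53, adjusted p = 0.0452), and these 4 genes are named after their values were seen. The calls of BRL1, BRL3, BKI1 and BSK1 were all lost without Col replicate 2 and without f1f3 replicate 2. BSK2, of a kinase family acting below BRI1, had 501 and 494 in pifq, 593 and 714 in f1f3, and 388 and 411 in Col, and rose in f1f3 by 0.70 (SE 0.18, adjusted p = 0.0255). The BSK2 call was lost without Col replicate 1 (adjusted p = 0.115), Col replicate 2 (0.0944) or f1f3 replicate 2 (0.137). BSK3, a kinase of the same family, was lower in pifq than in f1f3 by a log2 change of -0.78 (SE 0.18, adjusted p = 0.0254), with 1406 and 1765 in pifq, 2519 and 2922 in f1f3, and 2135 and 2288 in Col. Without f1f3 replicate 1, f1f3 replicate 2 or pifq replicate 1 its adjusted p was 0.0523, 0.125 and 0.123. Of the 6 genes of the BZR1 and BES1 family, 1 fell in pifq against Col, where 2.87% of all tested genes fell. In f1f3 against Col 0 of the 6 passed, and between the mutants 1 did, BES1, where 16% of all tested genes passed. The gene that fell in pifq was BEH4, a homologue of BZR1. BEH4 had 347 and 502 in pifq, 616 and 554 in f1f3, and 785 and 797 in Col, and its change in pifq was -0.92 (SE 0.21, adjusted p = 0.0422). A gene on the same strand shares 26.4% of its exon bases. The call of BEH4 was lost without any 1 library other than pifq replicate 2, with adjusted p from 0.0598 to 0.212.

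The network of bHLH proteins that carries the growth response had 8 tested genes. In pifq against f1f3, 3 of the 8 were higher and 2 lower, beside 9.36% and 6.63% of all tested genes. Against Col, 2 of the 8 fell in pifq (2.87% of all tested genes) and 4 in f1f3 (12.8%). In this network HBI1 promotes cell elongation, IBH1 binds and inhibits it, and PRE proteins bind IBH1 and release HBI1. HBI1 had 740.2 and 1025 in pifq, 296 and 257 in f1f3, and 798 and 956.5 in Col. It fell in f1f3 by 1.66 (SE 0.21, adjusted p = 0.0033), was at 0.00 in pifq against Col (adjusted p = 0.993), and was higher in pifq than in f1f3 by 1.65 (adjusted p = 0.00229). PRE1 had 210.0 and 170.2 in pifq, 76.2 and 56.2 in f1f3, and 189 and 193 in Col, and fell in f1f3 by 1.53 (SE 0.27, adjusted p = 0.00745). BEE2, a brassinosteroid-induced factor, had 970.2 and 1306 in pifq, 456 and 309.8 in f1f3, and 864 and 1069 in Col, and fell in f1f3 by 1.35 (SE 0.25, adjusted p = 0.00867; 0.0502 without Col replicate 2 and 0.057 without f1f3 replicate 2). BEE2 was higher in pifq than in f1f3 by 1.58 (adjusted p = 0.00498).

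IBH1 and PRE6 fell in pifq. IBH1 had 136.5 and 97.6 in pifq, 307 and 241.4 in f1f3, and 586 and 414 in Col, at -2.08 against Col (SE 0.27, adjusted p = 0.00586). PRE6, also called KIDARI, had 347 and 738 in pifq, 1982 and 1097 in f1f3, and 1897 and 1672 in Col, at -1.81 against Col (SE 0.38, adjusted p = 0.0307). Without pifq replicate 1, IBH1 stood at -2.32 (adjusted p = 0.0193) and PRE6 at -1.27 (adjusted p = 0.142), and PRE6 also missed the threshold without Col replicate 1 (0.118) or Col replicate 2 (0.0903). In pifq against f1f3, IBH1 was lower by a log2 change of -1.23 (adjusted p = 0.0202) and PRE6 by -1.54 (adjusted p = 0.0294). For IBH1 this was 0.0986 without f1f3 replicate 1, 0.0562 without f1f3 replicate 2 and 0.113 without pifq replicate 2, and for PRE6 it was 0.14 without f1f3 replicate 1 and 0.117 without pifq replicate 1.

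**Figure D4:**
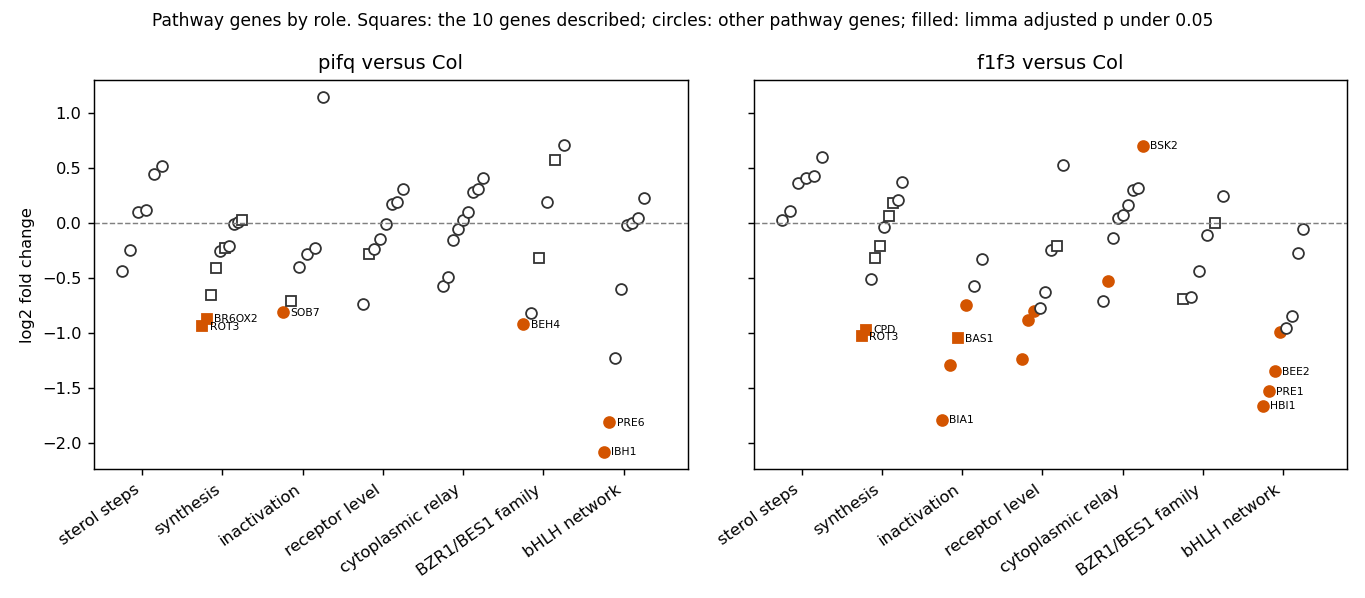
Log2 fold change (vertical axis) in pifq against Col and in f1f3 against Col for 53 tested pathway genes, grouped by role (horizontal axis). Squares are the 10 genes described, circles the other pathway genes, and filled symbols passed limma's adjusted p of 0.05. In f1f3 the filled symbols include inactivation, receptor-level and bHLH genes, and in pifq the lowest are IBH1 at -2.08 and PRE6 at -1.81.

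The gene whose profile over the 6 libraries lay closest to each member was found among 8787 tested genes with a symbol outside the pathway list, by the root mean square difference of log2 values centred on Col. For BAS1 it was CLC-C (AT5G49890), at a distance of 0.089, with changes of -0.63 in pifq and -0.95 in f1f3. For CPD it was XBAT35 (AT3G23280), at 0.050, for ROT3 MYB55 (AT4G01680), at 0.113, and for BR6OX2 DGK1 (AT5G07920), at 0.104. BES1 was nearest to NAC101 (AT5G62380), at 0.138, with 0.73 in pifq and -0.63 in f1f3. With 6 libraries such matches describe these libraries only.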

How the data were processed

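RNA from 6 seedling libraries (pifq, f1f3 and Col, n = 2 each) was sequenced. Per the submitters' processing notes, Trimmomatic, TopHat2 2.1.0, HTSeq 0.6.1, edgeR and the TAIR10 build were used, with no role or order given. The deposited signal values have 1 decimal. Between 99.98% and 100% of them in each library were whole multiples of the value of 1 read (0.799 to 1.29) within 0.0505, and that number times the median-of-ratios size factor was 1, so reads could be recovered. Replicates differed by more than sampling noise (chi-square per degree of freedom 42.2 to 51.8).

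Values were tested with limma 3.58.1 (log2 of value plus 1, intensity trend, 3 residual and 5.15 prior degrees of freedom, all 6 libraries). A filter on low values left 20581 of 24439 genes. The fit was tested on simulated data. Alternatives were edgeR 4.0.16 and DESeq2 1.42.0 on recovered reads, other scalings, pseudocounts 0.5 and 5, no filter, the compared groups alone, a replicate block, and each library left out. Their use on the further pathway genes was added after the data were seen.

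The members and gene lists were chosen with earlier results of these data known. Named are the 10 members and up to 4 further pathway genes per comparison and direction with the smallest p; BR6OX1, CYP90D1, BRL1, BRL3, BKI1, BSK1 and the genes not tested were named after their values were seen. Positions, exon lengths and windows come from RefSeq TAIR10.1, joined by locus identifier, since the files hold no coordinates.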

Additional observations from a re-analysis of the deposited data

How the results depend on the processing

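The direction of every member call held under each of the 15 alternatives, and the calls of CPD, ROT3 and BAS1 in f1f3 and of ROT3 and BR6OX2 in pifq against Col held under all alternatives that kept the 6 libraries or the compared groups. The number of members called ran from 1 to 3 in f1f3 against Col with 1 library left out, from 0 to 2 in pifq against Col, and from 0 to 1 in pifq against f1f3; in f1f3 the count of 1 was that without f1f3 replicate 2. Where limma called 0 members, 4 or 5 of the 10 had an unadjusted p under 0.05 in pifq against Col and 2 or 3 in pifq against f1f3, while edgeR and DESeq2 with all libraries called 2 and 3 in the first comparison and 2 and 2 in the second. Between the mutants 1 member was called with the compared groups alone, where BR6OX2 had an adjusted p of 0.0543. BAS1 in pifq passed with DESeq2 (adjusted p = 0.0266). Over all genes, leaving out 1 library gave 1422 (without f1f3 replicate 2) to 4663 calls in f1f3 against Col, 365 (without pifq replicate 1) to 1233 in pifq against Col and 1388 (without f1f3 replicate 2) to 2859 in pifq against f1f3, and DESeq2 gave 2429 in pifq against Col, against 1333 with limma. The replicate numbers of the labels pair only 2 libraries per group, and deviations of equally numbered libraries correlated at 0.345, 0.444 and 0.215 over genes. With the replicate block, 4 members passed in pifq against Col (CPD at adjusted p = 0.0304 and BAS1 at 0.0287 joined), 3 in f1f3 against Col and 2 between the mutants, and all genes called numbered 7436, 2915 and 5458 in f1f3 against Col, pifq against Col and pifq against f1f3. Of the further pathway genes the block called 21, 8 and 16 in the same order, against 12, 4 and 10 without it.

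The sign turned only for members that had not passed. With all libraries kept, it did so for BZR1 in f1f3 against Col (0.0108 with edgeR, 0.0105 with TMM scaling, 0.12 with library totals) and, in pifq against f1f3 with library totals, for DWF4 (-0.036) and ROT3 (-0.034). With 1 library left out, the values in f1f3 against Col ran from -0.052 to 0.41 for DWF1, from -0.21 to 0.34 for DET2 and from -0.16 to 0.16 for BZR1, and in pifq against Col from -0.10 to 0.15 for DWF1. In pifq against f1f3 they ran from -0.13 to 0.32 for DWF4, from -0.11 to 0.30 for ROT3, from -0.39 to 0.078 for DWF1 and from -0.15 to 0.023 for BRI1. The cause was not tested, and 2 libraries per group limit the precision of every value.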
